A study of Mus musculus with 2 samples.

Results

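The genes described here encode the pore-forming and accessory subunits of voltage-gated and related potassium, calcium and sodium channels and the Trp cation channels. They were chosen by symbol alone, as rows of the deposited count tables named Kcn, Cacn, Scn or Trp followed by the family letters and numbers, which gave 117 members of 16943 nuclear genes. Of the 117, 91 were listed for the control plate, 102 for the treated plate and 76 for both, and a member listed for 1 plate was taken as 0 in the other. Genes with at least 100 reads over the kept wells of both plates were described, 37 members and 11007 genes in all. The other 80 members had 1 to 99 reads. The members nearest above that minimum were Kcnip2 with 108 reads and Kcnk3 with 124, and those nearest below were Trpm6 with 98 reads, Kcng2 with 95 and Trpc4 with 92. The cells came from organoids of mouse jejunal and ileal epithelium, homozygous for the Neurog3-RFP allele, and were sorted as Ngn3-RFP-positive single cells. One plate of 384 wells was sorted after 48 h in the solvent DMSO and 1 plate after 48 h in ISX-9 (isoxazole 9), a small molecule known as an inducer of neuronal differentiation. The title of the series puts the question as a change of endocrine progenitor fate by ISX-9.

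Voltage-gated channels open when the membrane depolarises. Sodium and calcium channels carry the inward current of an action potential, calcium entry triggers the release of hormone granules, and potassium channels return the membrane to rest. Trp channels are cation channels opened by chemical irritants, lipid messengers, calcium or oxidative stress. In the gut epithelium, enteroendocrine cells are electrically excitable, and the serotonin-producing enterochromaffin cells among them sense irritants through Trpa1. The absorptive and secretory epithelium uses potassium channels such as Kcnq1 with its subunit Kcne3 to drive fluid secretion, and tuft cells use Trpm5 in taste-like signalling.

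Each treatment was 1 library, so no difference between plates was tested and every value is a description of these plates. The values are CPM (counts scaled to a common total of nuclear reads) summed over wells, with exact 95% Poisson intervals. Shares of wells carry exact Clopper-Pearson intervals, and both kinds of interval cover counting error only. Reads include amplified copies of the same molecule, so the Poisson intervals understate the error of counting molecules. Wells with at least 2000 nuclear reads and 500 nuclear genes were kept, 300 of 384 in the DMSO plate with 14754827 reads (median 26340 per well) and 290 of 384 in the ISX-9 plate with 11801859 reads (median 22509.5). A floor of 3 counts corresponds to 0.203 and 0.254 CPM over a whole plate. Kept wells were grouped at 1000 CPM of Neurog3 (the transcription factor that starts the endocrine lineage), Tph1 (the enzyme that commits tryptophan to serotonin) and Muc2 (the mucin of goblet cells). The Neurog3-only group held 33 DMSO and 84 ISX-9 wells, the Neurog3-with-Tph1 group 11 and 15, the Tph1-only group 47 and 43, the Muc2-only group 81 and 36, Muc2 with another 3 and 7, and 125 and 105 wells were below all of these levels. The group boundaries are levels and not cell types: 20 and 31 wells lay within 2-fold of the Neurog3 boundary, 25 and 44 of the Tph1 boundary and 48 and 24 of the Muc2 boundary. Enterochromaffin markers summed to 79338 and 64214 CPM in Tph1-only wells, with Cpb2 at 0 in both plates, and goblet markers to 30073 and 21891 CPM in Muc2-only wells, which also held 30529 and 15915 CPM of Paneth markers. The enterochromaffin list includes Tph1 and the goblet list Muc2, the genes that set these groups, so both sums are raised by construction. Immune markers summed to at most 7 CPM in these groups. In these sums, fewer cells that express a gene and less RNA per cell cannot be told apart.

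Most member reads belonged to a sodium channel and a few calcium channel subunits. Scn3a, a sodium channel pore subunit of endocrine and nerve cells, had 7317 reads in 133 of 300 DMSO wells and 8410 reads in 168 of 290 ISX-9 wells. Cacna1a, the pore of P/Q-type calcium channels, had 4957 reads in 163 wells and 5552 reads in 224 wells. Reads were counted near transcript ends and are not scaled by gene length, so levels are compared within a gene and not between genes. By family, 9 of 26 voltage-gated potassium channel subunits reached 100 reads, as did 6 of 19 Trp channels, 5 of 8 accessory potassium channel subunits, 4 of 9 calcium channel alpha1 subunits and 2 of 4 alpha2delta subunits. Among other families, 3 of 11 calcium- and sodium-activated potassium channels, 3 of 10 tandem-pore potassium channels, 2 of 9 sodium channel alpha subunits, 1 of 4 calcium channel beta subunits and 1 of 11 inward rectifiers did so. None of the 3 calcium channel gamma subunits reached 100 reads.

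**Figure D1:**
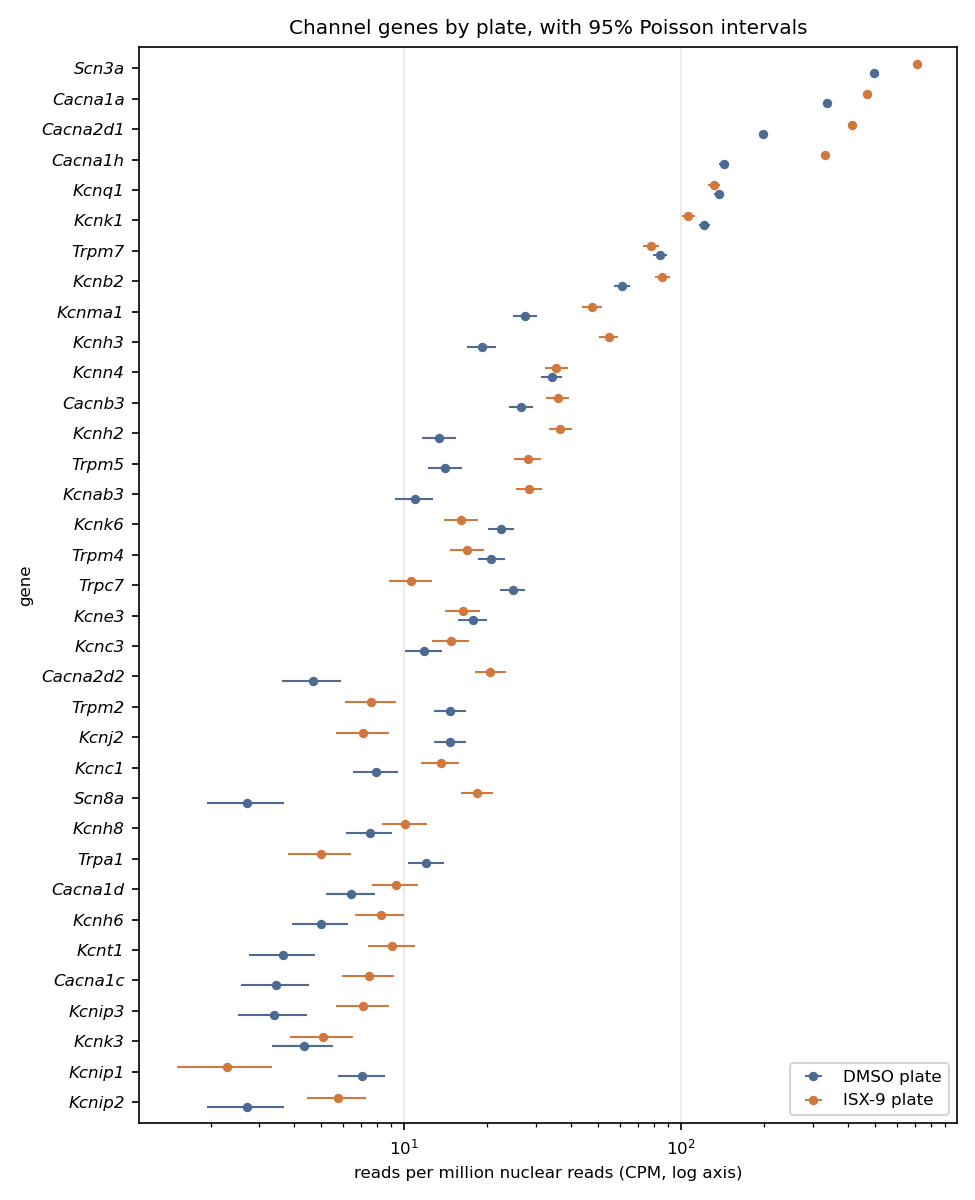
Level of described members in the DMSO and ISX-9 plates as CPM of nuclear reads summed over 300 and 290 kept wells, on a log axis; bars are exact 95% Poisson intervals of the read counts. Scn3a and Cacna1a have the most reads in both plates, and Scn8a, Cacna2d2 and Kcnh3 show wide gaps with ISX-9 above DMSO.

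With ISX-9, the levels of several calcium, sodium and voltage-gated potassium channel subunits were higher than with DMSO. No member was 2-fold lower once 5 CPM was added to each level. Differences between plates are log2 ratios of (CPM + 5) with DMSO as the denominator, and a member counts as past the fold at 2-fold of that sum. Of the 37 members, 8 were at least 2-fold higher (among them Scn8a, Cacna2d2, Kcnh3, Cacna1h, Kcnh2, Kcnab3 and Cacna2d1), where 5.33% of all genes were. None was at least 2-fold lower, where 1.11% of all genes were. With 1 CPM added in place of 5, Kcnip1, Trpa1 and Trpc7 were 2-fold lower, and the share of all genes at that setting was not computed. The median log2 ratio was 0.40 over the members and 0.15 over all 11007 genes, and 26 members were above 0 and 11 below. Scaling by spike-in reads, which moves log2 ratios by -0.25 before the pseudocount is added, left 4 members at 2-fold (Cacna2d2, Kcnh3 and Scn8a among them) and placed Trpc7 past 2-fold lower. The shares of all genes with that scaling were not computed. Cacna2d2 and Scn8a were at least 2-fold higher under all 13 other settings. Among these, a minimum of 50 reads and no minimum change only which members are counted and leave each ratio as it was.

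Of the 7 calcium channel subunits with at least 100 reads, all 7 had a log2 ratio above 0 and a read in more wells with ISX-9. At least 2-fold higher were 3 of them, where 5.33% of all genes were. All genes also leaned this way, with a median log2 ratio of 0.15 and a median of 2629.5 genes per well with DMSO and 2981 with ISX-9. The shares of all genes above 0 or read in more wells were not computed. With equal weight per well the ratio of Cacna1d was -0.07. Cacna1h, the pore of a T-type channel that opens near the resting potential, was at 143 CPM (137 to 149) in 113 DMSO wells and 331 CPM (320 to 341) in 186 ISX-9 wells, a log2 ratio of 1.18. With every well thinned to 2000 reads, the share of wells with a read was 18.3% with DMSO and 42.4% with ISX-9. Cacna2d1, the alpha2delta subunit that carries calcium channels to the cell surface and binds gabapentin, was at 198 CPM (191 to 205) in 93 wells and 414 CPM (402 to 426) in 132 wells, a log2 ratio of 1.04. Its relative Cacna2d2 was at 4.68 CPM in 12 wells and 20.5 CPM in 45 wells, a log2 ratio of 1.40. Cacna1a showed a smaller difference, from 336 to 470.4 CPM (log2 ratio 0.48). Summed over all listed members of the family, alpha1 subunits were at 492 CPM with DMSO and 820.1 CPM with ISX-9, and alpha2delta subunits at 203 and 437 CPM. The beta subunit Cacnb3 was at 26.5 and 35.9 CPM.

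Of the sodium channels, Scn8a, a pore subunit best known from the axons of nerve cells, had the highest log2 ratio of all members, 1.60, with 2.71 CPM (1.94 to 3.69) in 8 DMSO wells and 18.4 CPM (16.0 to 21.0) in 46 ISX-9 wells. Scn3a was at 496 CPM (485 to 507) and 713 CPM (697 to 728), a log2 ratio of 0.52, and after thinning was read in 28.7% and 47.6% of wells. Both pore subunits were therefore higher with ISX-9, Scn8a by more than 2-fold.

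Among potassium channels, the Kcnh genes encode channels of the ether-a-go-go group, which set the resting potential and the spacing of action potentials. Kcnh3 was at 19.0 CPM in 68 wells and 54.9 CPM in 131 wells (log2 ratio 1.32), and Kcnh2 at 13.4 CPM in 31 wells and 36.7 CPM in 67 wells (1.18). Kcnab3, a cytoplasmic beta subunit, was at 10.9 CPM in 31 wells and 28.3 CPM in 80 wells (1.07). Kcnma1 and Kcnb2 were higher with ISX-9 by less than 2-fold, at log2 ratios of 0.71 and 0.45. Kcnip1 and Kcnj2 were lower, at -0.73 and -0.70. Other potassium channel genes, given as examples, were nearer between plates. Kcnq1 was at 137 and 131 CPM, the tandem-pore channel Kcnk1 at 121 and 106 CPM, the calcium-activated Kcnn4 at 34.1 and 35.5 CPM, and Kcne3 at 17.7 and 16.3 CPM.

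Of the 6 Trp channels, 5 had a log2 ratio below 0, although in wells thinned to 2000 reads those of Trpm2 and Trpm4 were 0.16 and 0.78. Trpc7, a channel opened by diacylglycerol, had the lowest of all members at -0.93, with 24.7 CPM (22.2 to 27.3) in 29 DMSO wells and 10.6 CPM (8.82 to 12.6) in 11 ISX-9 wells. Trpa1 was at 12.0 CPM in 11 wells and 5.00 CPM in 5 wells (-0.77), and Trpm2, opened by ADP-ribose and oxidants, at 14.7 CPM in 33 wells and 7.63 CPM in 26 wells (-0.64). With a pseudocount of 1 CPM, 3 members were 2-fold lower, with no share of all genes computed at that setting. Without the 5% of wells with most reads the Trpc7 log2 ratio was -0.23, much closer to 0. Trpm7, a magnesium-permeable channel fused to a kinase, was at 84.0 and 78.1 CPM, and Trpm5 is described with the tuft markers.

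The channel genes read in a well differed with its level of Neurog3, Tph1 and Muc2. After thinning to 2000 reads, a Tph1-only well held reads of 4.26 members on average with DMSO and 5.47 with ISX-9, a Neurog3-with-Tph1 well 4.09 and 5.07, a Neurog3-only well 3 and 3.79, a well below all 3 levels 1.87 and 2.70, and a Muc2-only well 1.05 and 1.61. Summed over members, reads stood at 5022 and 6755 CPM in Tph1-only wells and 4279 and 5787 CPM in Neurog3-with-Tph1 wells. Neurog3-only wells were at 2657 and 3386 CPM, wells below all 3 levels at 1479 and 2011 CPM, and Muc2-only wells at 673 and 969 CPM. Much of the Tph1-only sum was Scn3a. Without Scn3a, Tph1-only, Neurog3-with-Tph1 and Neurog3-only wells were at 2651, 2935 and 2389 CPM with DMSO. With ISX-9 they were at 4260, 3969 and 2812 CPM. Wells below all 3 levels were then at 1286 and 1567 CPM and Muc2-only wells at 663 and 967 CPM. In what follows, each group was set against the wells of the same plate that were below all 3 levels, and a member counts only where it passed 2-fold in both plates.

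**Figure D2:**
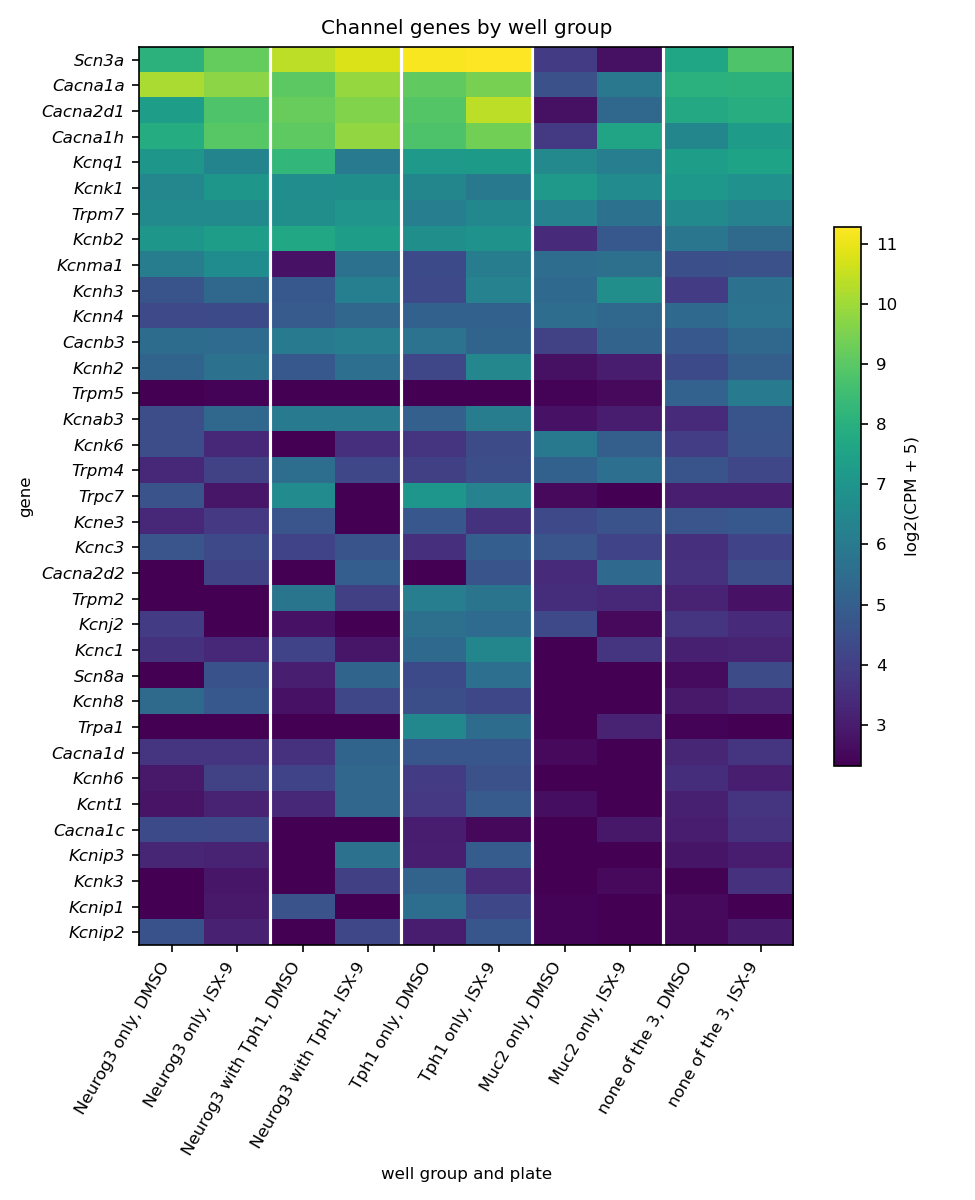
Levels of described members as log2 of (CPM + 5) in 5 well groups of the DMSO plate and the ISX-9 plate, with reads summed over the wells of a group. Scn3a is strongest in Tph1-only and Neurog3-with-Tph1 wells (1344 to 2495 CPM) and weakest in Muc2-only wells (10.2 and 1.64 CPM), and Trpm5 is seen almost only in wells below all 3 levels.

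In wells high in Tph1 alone, sodium, calcium, potassium and Trp channel genes stood above the reference wells. Of the 37 members, 15 were at least 2-fold higher than in the reference wells in both plates, where 3.16% of all genes were. Among them were Scn3a and Scn8a, Cacna1a, Cacna1d, Cacna1h and Cacna2d1, Kcnc1, Kcnh8, Kcnab3, Kcnip1 and Kcnj2, and Trpa1, Trpc7 and Trpm2. Only Trpm5 was 2-fold lower in both, where 2.42% of all genes were. The median log2 ratio of the members was 0.68 with DMSO and 1.21 with ISX-9, against -0.04 and -0.08 for all genes. When each well was given equal weight, 9 of the 15 were 2-fold higher in both plates: Cacna1h, Kcnab3, Kcnc1, Kcnip1, Scn3a, Scn8a, Trpa1, Trpc7 and Trpm2. The share of all genes with equal weight was not computed.

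Scn3a was read in nearly all Tph1-only wells. It was at 2371 CPM (2304 to 2439) in Tph1-only wells of the DMSO plate and 2495 CPM (2411 to 2580) in those of the ISX-9 plate, with a read in 45 of 47 and 42 of 43 wells, against 193 and 444 CPM in the reference wells. The median Tph1-only well stood at 3949 CPM with DMSO and 3298 CPM with ISX-9. In Muc2-only wells, which serve as the background, it was at 10.2 and 1.64 CPM with a read in 11 of 81 and 2 of 36 wells, although their median depth of 37313 reads with DMSO exceeded the 15730 reads of the Tph1-only wells (13357.5 and 17226 with ISX-9). After thinning, the shares were 89.4% and 93.0% of Tph1-only wells and 3.70% and 2.78% of Muc2-only wells. Scn3a also followed the level of Tph1 itself, with 75.2 CPM in DMSO wells without a Tph1 read, 222 CPM below 1000 CPM of Tph1, 2048 CPM from there to 10000 CPM and 4239 CPM above. The same steps in the ISX-9 plate were 260.0, 679, 2297 and 7855 CPM, the last from 1 well.

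The Trp channels of the Tph1-only group were read in few wells, with wide differences among them. Trpa1 was at 86.6 CPM (74.3 to 100.4) in 9 of 47 DMSO wells and 39.97 CPM (30.03 to 52.2) in 4 of 43 ISX-9 wells. Those 9 DMSO wells ranged from 7.16 to 1562 CPM and the 4 ISX-9 wells from 80.4 to 828 CPM. Outside the group, Trpa1 had 1 read in each of 2 DMSO wells below all 3 levels and 5 reads in 1 shallow ISX-9 Muc2-only well. Wells with Tph1 at or above 1000 CPM and Muc2 below it held 98.9% and 91.5% of Trpa1 reads but 17.6% and 15.2% of nuclear reads. Every Trpa1 well had Chga, the granule protein of endocrine cells (11 of 11 and 5 of 5), which was also read in 209 of all 300 DMSO wells and 164 of all 290 ISX-9 wells. Scn3a was read in 11 of 11 and 4 of 5 of them.

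Trpc7 was at 125 CPM (110.3 to 142) in 13 of 47 Tph1-only wells with DMSO and 73.3 CPM (59.6 to 89.2) in 7 of 43 with ISX-9, against 3.51 and 3.44 CPM in the reference wells, and 26 of 29 and 11 of 11 Trpc7 wells had Scn3a. Trpm2 was at 66.3 CPM in 17 wells and 49.6 CPM in 14 wells, against 4.39 and 1.81 CPM, with no read in the 33 and 84 Neurog3-only wells. In those 2 sets of wells the floor of 3 counts is 2.01 and 0.966 CPM. Among potassium channel genes, Kcnc1, a fast delayed rectifier, was at 36.6 and 80.7 CPM in Tph1-only wells against 3.66 and 4.35 CPM, and Kcnip1, a calcium-binding partner of A-type potassium channels, at 42.6 and 14.1 CPM against 0.878 CPM and no read. Kcnip1 was read in 5 and 3 of these wells, so its level rests on very few cells. Kcnj2, an inward rectifier, was at 44.1 and 38.5 CPM against 8.05 and 5.62 CPM, but with ISX-9 the log2 ratio was below 0 when wells had equal weight. Kcnk3, a background potassium channel, had 98.4% of its 64 DMSO reads in Tph1-only wells and 13.3% of its 60 ISX-9 reads.

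**Figure D3:**
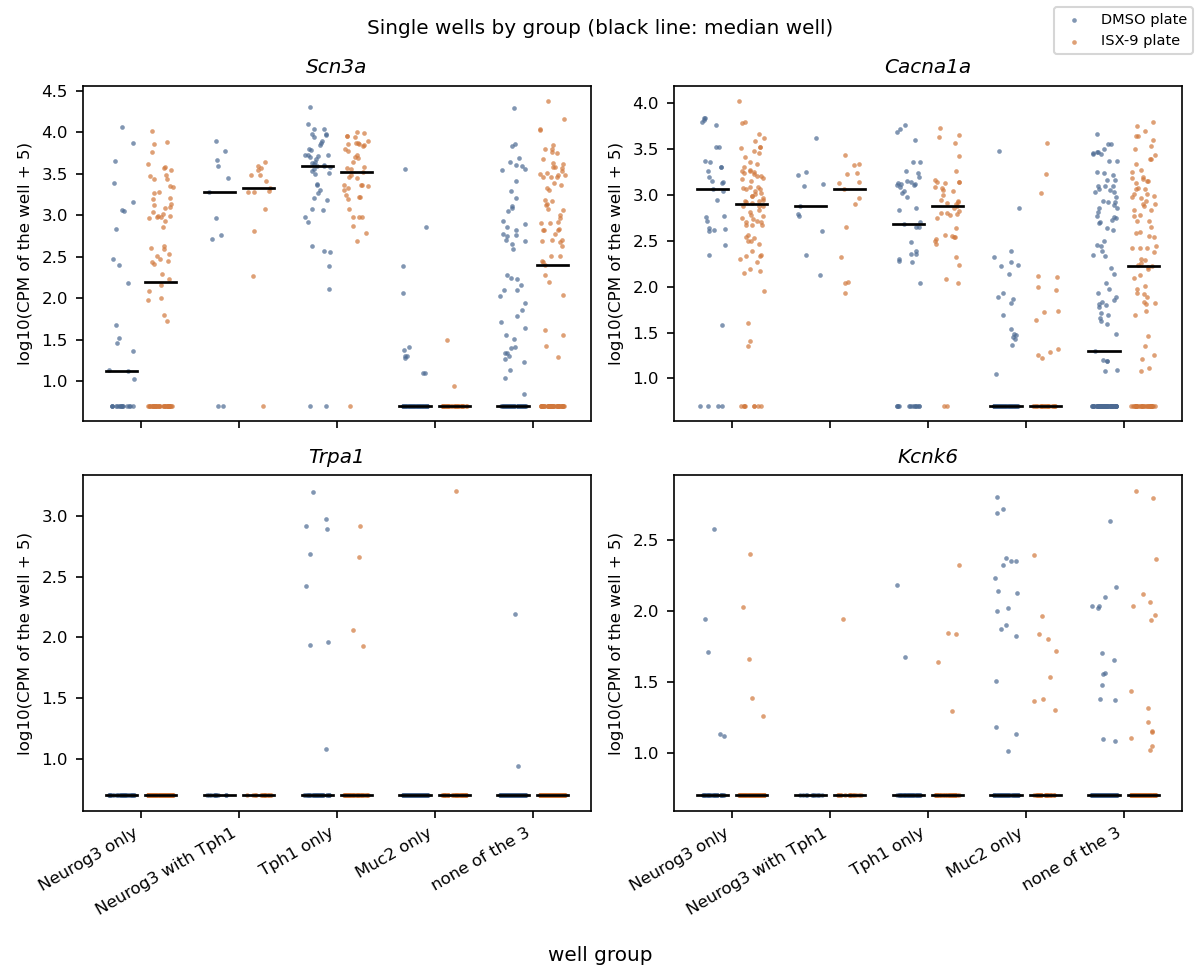
Level of Scn3a, Cacna1a, Trpa1 and Kcnk6 in single wells as log10 of (CPM + 5), by well group and plate; each point is a well and the black line is the group median. Nearly all Tph1-only wells have Scn3a (45 of 47 and 42 of 43), Cacna1a is spread over Neurog3 and Tph1 wells, Trpa1 is read in 9 and 4 Tph1-only wells, and Kcnk6 is read in 19 of 81 Muc2-only wells of the DMSO plate.

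Of the 37 members, 22 had promoter windows in the RefSeq table of build GRCm38.p6, 32 windows in all, and motifs were searched in the 250 bases before each start. The following windows belong to Trpc7, Trpm2 and Kcnip1, given as examples of members 2-fold above the reference wells in Tph1-only wells of both plates. Other members of that set also had windows, which are not printed. Each is printed 5′ to 3′ on the strand of the gene. Capitals mark CAGATG or CAGCTG on either strand, where CATCTG is CAGATG read from the other strand; these are E-box letters of the kind bound by factors such as Neurog3 and Neurod1.
Trpc7, chr13:56895790-56896039, minus strand: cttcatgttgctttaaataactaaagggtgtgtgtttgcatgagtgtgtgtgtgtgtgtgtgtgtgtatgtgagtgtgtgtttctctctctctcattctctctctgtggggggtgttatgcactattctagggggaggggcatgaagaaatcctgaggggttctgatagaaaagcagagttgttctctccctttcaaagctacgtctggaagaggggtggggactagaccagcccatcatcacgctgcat
Trpm2, chr10:77969873-77970122, minus strand: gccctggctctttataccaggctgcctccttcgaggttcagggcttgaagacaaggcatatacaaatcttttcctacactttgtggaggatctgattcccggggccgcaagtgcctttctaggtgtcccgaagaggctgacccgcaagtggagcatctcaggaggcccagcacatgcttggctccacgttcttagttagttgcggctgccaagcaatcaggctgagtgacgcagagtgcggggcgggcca
Kcnip1, start 1, chr11:33680683-33680932, minus strand: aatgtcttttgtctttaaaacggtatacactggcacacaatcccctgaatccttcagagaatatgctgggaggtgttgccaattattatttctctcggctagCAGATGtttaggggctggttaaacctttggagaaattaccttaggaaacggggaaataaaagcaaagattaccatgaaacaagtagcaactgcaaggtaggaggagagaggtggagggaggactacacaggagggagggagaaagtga
Kcnip1, start 2, chr11:33843687-33843936, minus strand: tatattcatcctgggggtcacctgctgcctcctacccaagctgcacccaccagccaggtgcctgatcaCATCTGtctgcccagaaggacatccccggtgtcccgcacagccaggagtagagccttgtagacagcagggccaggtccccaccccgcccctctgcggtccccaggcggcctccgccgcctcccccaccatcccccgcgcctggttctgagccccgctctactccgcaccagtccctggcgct
Kcnip1, start 3, chr11:33993194-33993443, minus strand: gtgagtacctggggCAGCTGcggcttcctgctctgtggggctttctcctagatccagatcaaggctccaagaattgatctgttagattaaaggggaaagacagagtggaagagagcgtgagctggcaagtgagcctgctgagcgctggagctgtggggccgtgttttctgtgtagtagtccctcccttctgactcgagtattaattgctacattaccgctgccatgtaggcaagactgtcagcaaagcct
Trpc7 and Trpm2 held neither motif in this window. The 3 Kcnip1 windows held CAGATG at position -148, its reverse CATCTG at -182 and CAGCTG at -236 from the start. Over the 32 windows of the described members, CAGATG was found in 7 (21.9%), belonging to 5 members, and in 14.4% of 32851 windows of all genes. CAGCTG was found in 4 (12.5%), belonging to 4 members, and in 13.0% of all windows. A match of letters is a description and not a binding site.

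Neurog3-only wells had an overlapping set, in which Cacna1a, Cacna1h and Kcnh8 were shared with Tph1-only wells. Endocrine progenitor markers summed to 8458 and 14717 CPM in Neurog3-only wells and 4524 and 13110 CPM in Neurog3-with-Tph1 wells. That list includes Neurog3, which sets both groups, so these sums are raised by construction. Of the 37 members, 6 were at least 2-fold higher than in the reference wells of both plates (among them Cacna1a, Cacna1h, Kcnb2, Kcnh8 and Kcnma1), where 2.54% of all genes were, and Kcnn4 and Trpm5 were 2-fold lower, where 2.33% were. Cacna1a was at 1139 CPM (1086 to 1194) in 29 of 33 DMSO wells and 840.4 CPM (808.5 to 873) in 76 of 84 ISX-9 wells. The reference wells stood at 261 and 266 CPM and the Muc2-only wells at 18.6 and 55.7 CPM, with a read in 20 of 81 and 14 of 36 wells. Single wells overlapped, since 68 of 125 and 73 of 105 reference wells also had a read.

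Kcnb2, a delayed rectifier, was at 128 CPM in 24 of 33 DMSO wells and 155 CPM in 57 of 84 ISX-9 wells, against 52.3 and 37.5 CPM. By Neurog3 level, DMSO wells without a Neurog3 read were at 61.9 CPM of Kcnb2, and the next 3 steps at 35.5, 112 and 449 CPM. In the ISX-9 plate these steps were 53.9, 46.0, 154 and 190 CPM. The top step was the highest in both plates, but the second step was below the first. Kcnb2 was not particular to Neurog3-only wells. Neurog3-with-Tph1 wells were at 205 and 158 CPM and Tph1-only wells at 106 and 115 CPM. Reference wells with at least 1000 CPM of peptide hormones were at 169 and 70.2 CPM. Kcnma1, the large-conductance potassium channel opened by calcium and voltage, was at 62.9 and 97.6 CPM in Neurog3-only wells against 17.6 and 18.1 CPM. Kcnh8 was at 38.2 CPM in 6 of 33 wells and 22.9 CPM in 20 of 84 wells, against 2.63 and 4.17 CPM. With equal weight for each well, 3 of the 6 members stayed 2-fold higher, Cacna1h and Kcnma1 among them, and with thinned wells 1 of the 6 did.

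In wells above the level of both Neurog3 and Tph1, of which there were 11 and 15, 6 members were 2-fold higher (Cacna1h, Cacna2d1, Kcnab3, Kcnb2, Scn3a and Trpm2), where 2.63% of all genes were. Kcnk6 and Trpm5 were 2-fold lower, where 5.06% were. Scn3a was at 1344 CPM in 9 of 11 DMSO wells and 1818 CPM in 14 of 15 ISX-9 wells, between the Neurog3-only wells (268 and 574 CPM) and the Tph1-only wells. Cacna1h had its highest group levels here, 530.3 CPM (472 to 593) and 908 CPM (821 to 1001). With thinned wells 2 of the 6 stayed past the fold, and the log2 ratio turned below 0 for Kcnab3 with DMSO (-1.77), Kcnb2 with ISX-9 (-0.0779) and Trpm2 with ISX-9 (-0.97). With the levels set at 3000 CPM that of Trpm2 was -1.11 and -1.09. With the levels set at 300 CPM, 11 members passed the fold, where 2.51% of all genes did, and the ratio of Kcnk6 with DMSO was 0.0587.

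Muc2-only wells had few channel reads. Of the 37 members, 27 with DMSO and 26 with ISX-9 were below the reference wells, with a median log2 ratio of -0.46 and -0.66 against -0.18 and -0.25 for all genes. In both plates 6 members, Cacna1a, Cacna2d1, Kcnh2, Scn3a and Trpm5 among them, were 2-fold lower than in the reference wells, where 3.93% of all genes were. Cacna2d1 was at 1.57 and 36.0 CPM against 205 and 234 CPM. Kcnh3 and Kcnma1 were 2-fold higher, where 1.22% of all genes were, at 36.9 and 104 CPM for Kcnh3 against 9.81 and 46.9 CPM, and 40.6 and 45.1 CPM for Kcnma1 against 17.6 and 18.1 CPM. Neither stayed past the fold when wells had equal weight or when the well with most reads of the gene was left out.

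Tandem-pore potassium channels and Trpm4 were among the members read in the Muc2 wells. Kcnk1 was at 141 and 95.8 CPM in Muc2-only wells, close to the 133 and 110.2 CPM of the reference wells. Kcnk6, another tandem-pore potassium channel, was at 57.1 CPM in 19 of 81 DMSO wells against 10.4 CPM, and at 27.9 CPM (9 of 36 wells) with ISX-9, where the reference was 19.6 CPM. In wells with at least 10000 CPM of Muc2, Kcnk6 stood at 206 CPM (4 of 9 wells) with DMSO and 169.7 CPM (1 of 4 wells) with ISX-9, against 9.21 and 10.2 CPM in wells without a Muc2 read. Trpm4, a cation channel opened by calcium, was at 17.0, 17.6, 25.9 and 51.0 CPM over the 4 steps of Muc2 in the DMSO plate and at 8.90, 20.3, 41.5 and 50.9 CPM in the ISX-9 plate. Both genes therefore had their highest level in the wells with most Muc2, which are few.

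Trpm5, the calcium-activated cation channel of tuft cells, was read in 7 wells of each plate, 208 reads with DMSO and 330 with ISX-9. Other tuft markers summed to 1863 CPM in the DMSO Trpm5 wells and 4.46 CPM in the other DMSO wells, and to 1878 and 12.6 CPM in the ISX-9 plate. In each plate 3 of the 7 wells had at least 1000 CPM of other tuft markers, and these held 72.6% and 79.7% of Trpm5 reads. The DMSO wells ranged from 18.7 to 1320 CPM of Trpm5 and the ISX-9 wells from 12.3 to 2019 CPM. Trpm5 had no read in Tph1-only or Neurog3-with-Tph1 wells of either plate, so its log2 ratio between plates of 0.79 rests on a handful of wells below all 3 levels.

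**Figure D4:**
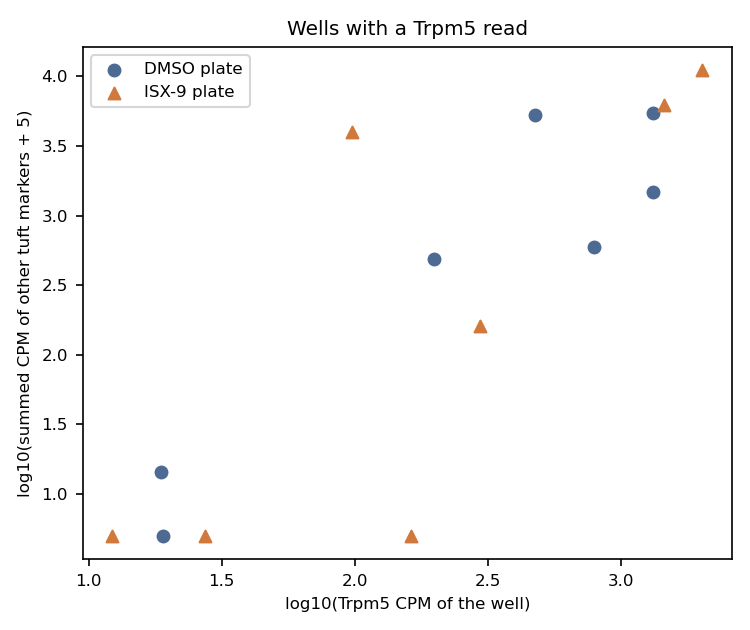
Trpm5 level against the summed level of the other tuft markers, as log10 of the CPM (with 5 CPM added for the tuft markers), in the 7 DMSO and 7 ISX-9 wells with a Trpm5 read. In each plate 3 wells have at least 1000 CPM of other tuft markers, and the wells with the highest Trpm5 (1320 and 2019 CPM) are among them.

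The reference wells were themselves mixed, since peptidergic endocrine markers summed to 11637 CPM with DMSO and 4602 CPM with ISX-9 there. Splitting them at 1000 CPM of 7 peptide hormone genes gave 29 and 96 DMSO wells and 23 and 82 ISX-9 wells. Cacna2d1 was at 821 CPM in the hormone-high and 35.7 CPM in the hormone-low DMSO wells, and at 797 and 135 CPM in the ISX-9 wells. Cacna1a was at 826 and 105 CPM with DMSO and 638 and 200.5 CPM with ISX-9, Scn3a at 482 and 113 CPM and at 1063 and 335 CPM, and Cacna1h at 266 and 30.4 CPM and at 404 and 103 CPM. Kcnq1 and Kcne3, named above for fluid secretion, were lower in the hormone-high wells. Kcnq1 was at 78.6 and 173 CPM with DMSO and 102 and 194 CPM with ISX-9. Kcne3 was at 6.78 and 24.3 CPM and at 1.21 and 26.4 CPM. With the hormone-low wells as the reference, which was chosen after seeing the data, 9 members were 2-fold higher in Neurog3-only wells in place of 6, where 3.66% of all genes were. In Neurog3-with-Tph1 wells 10 were in place of 6 (3.84% of all genes), in Tph1-only wells 19 in place of 15 (5.07%) and in Muc2-only wells 1 in place of 2 (1.24%).

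The difference between plates was then read within each group, because the ISX-9 plate held more Neurog3-only wells and fewer Muc2-only wells. In Neurog3-only wells 7 members were at least 2-fold higher with ISX-9, where 10.9% of all genes were, and 4 were lower, where 5.96% were. In Neurog3-with-Tph1 wells the counts were 14 higher and 7 lower, where 20.2% and 19.2% of all genes passed. In Tph1-only wells they were 13 and 4, where 13.3% and 8.19% passed, in Muc2-only wells 9 and 2, where 10.6% and 6.59% passed, and in wells below all 3 levels 5 and 0, where 6.29% and 1.41% passed. The smallest group had the most genes past the fold in both directions and the largest group the fewest.

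Of the 8 members higher over the whole plate, all but Scn8a had a log2 ratio above 0 in all 5 groups. Of their 40 ratios, 39 were above 0, and 12 of these 39 were below 0 in at least 1 other way of computing them. That of Kcnab3 was -0.23 in wells below all 3 levels when wells were thinned and -0.0038 in Tph1-only wells with levels of 3000 CPM, and that of Kcnh3 in Neurog3-only wells was -0.92 when thinned. Cacna2d2 and Kcnh3 passed 2-fold in 4 of the 5 and Cacna1h in 2. With equal weight per well, Cacna2d2 passed in 4, Kcnh3 in 2 and Cacna1h in none. Cacna2d2 had no read in Neurog3-only, Neurog3-with-Tph1 and Tph1-only wells with DMSO and stood at 12.9, 27.2 and 19.99 CPM there with ISX-9. In Neurog3-with-Tph1 wells the floor of 3 counts is 5.25 CPM with DMSO and 6.79 CPM with ISX-9. Its log2 ratio there, 2.69, was 0.995 without the well with most reads and 0 with thinned wells. In Neurog3-only and Tph1-only wells the lowest ratio of Cacna2d2 in any setting was 1.19 and 1.44. Kcnh3 was at 14.9 and 73.3 CPM in Tph1-only wells and at 9.81 and 46.9 CPM in wells below all 3 levels. Cacna1h was at 231 and 493 CPM in Neurog3-only wells, 433 and 653 CPM in Tph1-only wells, and 9.43 and 182 CPM in Muc2-only wells. The log2 ratio in Muc2-only wells was 3.70 from summed reads, but 0.98 with equal weight per well and 0.79 with thinned wells. In those Muc2-only wells the enterochromaffin markers summed to 1731 CPM with DMSO and 2958 CPM with ISX-9, and the peptidergic markers to 170.2 and 657 CPM; their part in the result was not tested. Scn8a had no read in 33 Neurog3-only wells with DMSO and 18.7 CPM in 12 of 84 with ISX-9, and none in Muc2-only wells of either plate.

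Scn3a did not differ by 2-fold over the whole plate, and its ratio between plates varied among the groups. Scn3a was close between plates in Tph1-only wells (log2 ratio 0.07), higher with ISX-9 in Neurog3-only wells (1.09) and in wells below all 3 levels (1.18), and lower in Muc2-only wells (-1.20). The level in Muc2-only wells with ISX-9, 1.64 CPM, was below the floor of 3 counts, 2.46 CPM in those wells. In Neurog3-only wells the ratio was 0.13 with equal weight per well, 0.22 with thinned wells and 0.94 with levels of 3000 CPM, and in wells below all 3 levels it was 0.47 with levels of 300 CPM. In Muc2-only wells it was -0.80 with a pseudocount of 10 CPM, -0.81 with stricter well minimums and -0.85 without the well with most reads. In the wells below all 3 levels, enterochromaffin markers also stood higher with ISX-9, at 10887 CPM against 5404 CPM, and their part in the Scn3a difference was not tested. Cacna1a had a log2 ratio of -0.44 in Neurog3-only wells and 0.35 in Tph1-only wells. Trpa1 and Trpc7 were lower with ISX-9 in Tph1-only wells (-1.03 and -0.73), where 4 and 7 wells carried them.

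**Figure D5:**
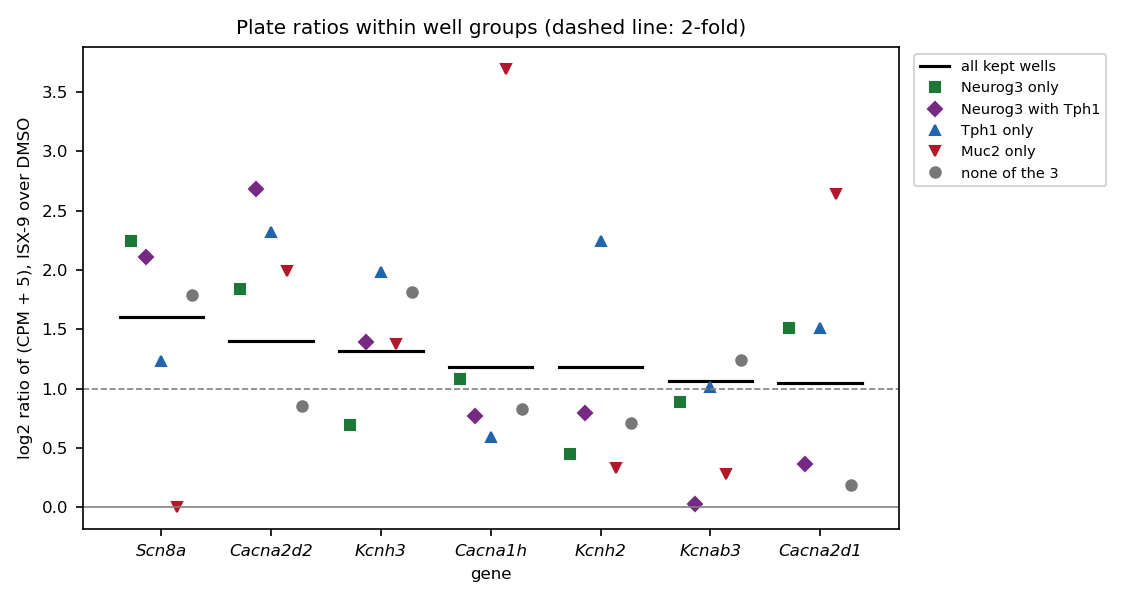
ISX-9 to DMSO ratio, as log2 of (CPM + 5), of members that were at least 2-fold higher over all kept wells, within each well group (points) and over all wells (black line); the dashed line marks 2-fold. All but Scn8a lie above 0 in all 5 groups, and Cacna1h in Muc2-only wells has the highest ratio, 3.70, which falls to 0.98 with equal weight per well and 0.79 with thinned wells.

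Of 55 other channel and excitability genes listed beside the members, 28 had at least 100 reads, and their median log2 ratio between plates was 0.28. At 2-fold, 3 were higher with ISX-9 and 0 lower, where 5.33% and 1.11% of all genes were. Of the 3, Tpcn1, an endolysosomal cation channel, was at 54.2 and 123 CPM and Scnn1a, the alpha subunit of the epithelial sodium channel, at 11.3 and 28.0 CPM. Abcc8, the sulphonylurea receptor that pairs with inward rectifiers in endocrine cells, was at 19.9 and 11.6 CPM.

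Members below 100 reads are given by their reads alone. Trpv6, the calcium channel of absorptive cells, had 2 reads with DMSO and 64 with ISX-9, Kcnq5 had 0 and 62, Kcnu1 0 and 53, and Scn3b 3 and 45. Kcnk4 had 47 reads with DMSO and 1 with ISX-9, and Kcnj3 36 and 0. Some described genes overlap another gene on the opposite strand, and the sources used here do not say whether the counting used strand. The values of Kcnq1, which overlaps Kcnq1ot1 (31826 and 20323 reads), Kcnh3, which overlaps Mcrs1 (943 and 721), Cacna1h, which overlaps Tpsg1 (165 and 136), Cacna1d, which overlaps Chdh (72 and 65), and Trpm5, which overlaps Tssc4 (362 and 331), are uncertain to that extent.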

How the data were processed

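Single sorted cells were profiled by SORT-seq, a plate form of CEL-Seq2 in which a primer with a well barcode and a 4-base molecular barcode copies polyadenylated RNA, per the labels' protocols. For each plate the authors deposited raw counts, the reads of each gene in each of 384 wells. Values reach 61032 and 30676, above the 256 combinations of the molecular barcode, so these are reads and not molecules. Per the submitters' processing notes, BWA (version not stated) and the genome build hg19 were used, while the deposited gene symbols are mouse. All 117 members matched a symbol of GENCODE release M21 on the same chromosome. How paralogs, strand and shared reads were counted: not given in the sources used here.

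Spike-in and mitochondrial genes were left out of totals. Wells with at least 2000 nuclear reads and 500 genes were kept. The wells left out, 84 and 94, held 368 and 577 member reads against 29284 and 34770 in kept wells. Reads were summed per plate and group as CPM, and the ratio is log2 of (CPM + 5). Groups were set at 1000 CPM of Neurog3, Tph1 and Muc2, and wells were also thinned to 2000 reads. No doublet caller was run, and an alternative dropped the 5% of wells with most reads. No test was made, since there was 1 plate per treatment. The 384 well names are shared by both plates by design, and no well had identical values in both.

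The genes given with values were those among the 20 with the highest mean CPM, those past 2-fold between plates with reads in at least 10 wells, and those past 2-fold above the reference wells in the same group in both plates; others are named with their reads or as examples. Kcnk3, Kcnk6, Trpm4 and Trpm5 in single wells, and the split by peptide hormones, were chosen after values were seen. Values of some genes are not reported here, and counts of members include them. The members and lists were chosen with earlier results of these data known. Alternatives were other scalings (median of ratios, spike-in reads, Rn45s left out), pseudocounts of 1 and 10, other well and read minimums, equal weight per well, thinned wells, leaving out the well with most reads, and levels of 300 and 3000 CPM. Scripts were tested on simulated data. Python 3.11.15, numpy 2.4.6, pandas 2.3.3, scipy 1.17.1 and matplotlib 3.10.9 were used.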

Additional observations from a re-analysis of the deposited data

How the results depend on the processing

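No paired analysis was possible because each treatment was 1 plate. Read depth limits the low genes, many of which rest on fewer than 10 wells, and amplified copies of 1 molecule are counted more than once. Keeping all wells with a nuclear read moved the count higher with ISX-9 in Tph1-only wells from 13 to 14 and exchanged 1 of the 15 members above the reference there. Of the members past 2-fold between plates, 8 higher became 4 with spike-in scaling, and 0 lower became 1 with median-of-ratios scaling, spike-in scaling, Rn45s left out or thinned wells, and 3 with a pseudocount of 1 CPM. Among the alternatives, the share of all genes past the fold was computed only for levels of 300 CPM and the hormone-low reference, against the reference wells. Counts at the other settings have no such share beside them. Members 2-fold above the reference in both plates changed as follows. In Neurog3-only wells 6 became 3 with equal weight per well and 1 with thinned wells. In Tph1-only wells 15 became 9 with equal weight. In Neurog3-with-Tph1 wells 6 became 2 with thinned wells, 11 with levels of 300 CPM and 10 with the hormone-low reference. In Muc2-only wells 2 became 0 with equal weight, without the well with most reads or with levels of 3000 CPM, and 1 with thinned wells, a pseudocount of 10 CPM, without the top 5% of wells or with the hormone-low reference. Members higher with ISX-9 within a group changed from 5 to 9 (equal weight), 10 (thinned), 8 (pseudocount 1), 3 (pseudocount 10), 3 (levels of 300 CPM) and 9 (levels of 3000 CPM) in wells below all 3 levels. They changed from 7 to 11 (thinned) and 12 (pseudocount 1) in Neurog3-only wells, and from 9 to 5 in Muc2-only wells without the well with most reads. Members read in at least 10% of the wells of a plate went from 27 to 10 with thinned wells. Against the reference wells, only ratios at least 2-fold away in both plates were followed for a change of sign. Those that changed sign were Kcnj2 in Tph1-only ISX-9 wells (-1.38 with equal weight, -0.76 thinned, -1.63 at 3000 CPM), Kcnh3 in Muc2-only wells (-0.36 with equal weight with ISX-9, -0.19 thinned with DMSO), Kcnh8 with ISX-9 (-0.19 thinned in Neurog3-only, -1.17 at 3000 CPM in Tph1-only) and Cacna1d in Tph1-only ISX-9 wells (-1.01 thinned). In Neurog3-with-Tph1 wells they were Kcnab3 with DMSO (-1.77 thinned), Kcnb2 with ISX-9 (-0.0779 thinned), Trpm2 (-0.97 thinned with ISX-9, -1.11 with DMSO and -1.09 with ISX-9 at 3000 CPM) and Kcnk6 with DMSO (0.0587 at 300 CPM). Within groups, 12 of the 39 ratios of ISX-9 to DMSO above 0, of the 8 members higher over whole plates, turned below 0 in at least 1 setting. Of those at least 2-fold as reported, Kcnab3 turned in wells below all 3 levels (-0.23 thinned) and in Tph1-only wells (-0.0038 at 3000 CPM). The others were under 2-fold as reported, among them Kcnh3 in Neurog3-only wells (-0.92) and Cacna2d1 in wells below all 3 levels (-0.93). Over whole plates 11 of 37 members, each under 2-fold as reported, changed sign in at least 1 setting, among them Kcnj2 (1.08 with equal weight, from -0.70) and, when thinned, Kcnh8 (-0.63), Kcnip3 (-0.38), Kcnh6 (-0.34), Kcne3 (0.45), Trpm2 (0.16) and Trpm4 (0.78). Other than for thinning and equal weight, which give shallow or single wells more weight by construction, the cause was not tested.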
